A study of Mus musculus with 2 samples.

Results

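Ccl3/Ccl4 macrophages are described here as they were found in the leukocytes of mouse aorta, gated on the pan-leukocyte antigen CD45 and read as 2 droplet libraries of single-cell RNA. They are C1q macrophages, cells that make the complement subunits C1qa, C1qb and C1qc, with high counts of the chemokine transcripts Ccl3 and Ccl4 and little of the marker sets of resident, foamy, cycling, T or B cells. The treated library came from mice given ZnDPA@siIRF5, a preparation whose name includes an siRNA to the transcription factor IRF5 (interferon regulatory factor 5), and the control library came from a control group whose library name is Scr. The study asked what this treatment does to macrophages of the aorta. The labels give tissue and gate alone: genotype, diet, age, sex, the number of mice pooled and the contents of the control preparation are not stated. With 1 library per group there is no replicate, so no test was made, and differences between mice, dissections or libraries cannot be told apart from the treatment.

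Members were barcodes with at least 500 detected genes and at most 15% mitochondrial counts that met 6 conditions on raw counts of unique molecular identifiers (UMIs, 1 per captured transcript molecule). They had at least 3 UMIs of C1qa, C1qb and C1qc together and at least 5 of Ccl3 and Ccl4 together. They had at most 1 UMI of the resident set (Lyve1, Folr2, F13a1, Cbr2 and Cd163), at most 1 of the foam cell set (Gpnmb, Ctsk, Mmp12 and Spp1) and at most 1 of the cycle set (Mki67, Top2a and Birc5), with Cd3e and Cd79a at 0. This gave 487 cells of 24504 kept barcodes, 295 of 12466 in the treated library and 192 of 12038 in the control library. The members were thus selected on their measured counts of C1q, chemokine and the other set genes, and what follows on those genes is a description. No test was made between these cells and others, because all were sorted on counts from the same cells.

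Ccl3 and Ccl4, also called MIP-1 alpha and MIP-1 beta, are small secreted proteins that draw in monocytes, T cells and other leukocytes through receptors that for Ccl3 include Ccr1. Macrophages switch these genes on within hours of a signal through Toll-like receptors or cytokine receptors, by way of NF-kappaB and AP-1 factors, together with Cxcl2, Tnf, Il1b and other early response genes. IRF5 is activated below Toll-like receptors and promotes cytokine gene transcription in macrophages. Tissue dissociation is also known to switch on early response genes in macrophages. In the vessel wall, C1q macrophages are split by earlier work into resident cells with Lyve1 and Folr2, lipid-laden cells with Gpnmb and Trem2, and inflammatory cells with chemokine and cytokine transcripts.

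Both chemokine genes lie on chromosome 11 in GRCm38 (GENCODE vM21). Ccl3 (ENSMUSG00000000982) spans 83647844 to 83649355 on the minus strand, and Ccl4 (ENSMUSG00000018930) spans 83662584 to 83664683 on the plus strand. Promoter windows from RefSeq (GRCm38.p6), which run from 250 bases before to 50 after the annotated start, are shown for Cxcl2, Ccl3 and Tnf, because these transcripts were abundant together in the cells described. Of 14 inflammatory genes looked up, 10 were in the table; Ccl4, Ccl2, Ccl5 and Ccl7 were not. Capitals mark matches, on either strand, to an NF-kappaB-like motif (GGG, then any 3 bases, then TTCC), the TATA motif (TATAA) or the AP-1 motif (TGANTCA). The windows are chr5:90903649-90903948 on the plus strand for Cxcl2, chr11:83649329-83649628 on the minus strand for Ccl3 and chr17:35201958-35202257 on the minus strand for Tnf.
Cxcl2: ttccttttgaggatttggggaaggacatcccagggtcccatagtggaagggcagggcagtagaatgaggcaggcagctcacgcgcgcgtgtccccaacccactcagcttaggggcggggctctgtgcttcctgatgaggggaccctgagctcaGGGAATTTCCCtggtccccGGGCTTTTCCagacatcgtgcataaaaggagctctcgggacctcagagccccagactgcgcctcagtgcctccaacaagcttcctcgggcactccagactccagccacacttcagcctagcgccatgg
Ccl3: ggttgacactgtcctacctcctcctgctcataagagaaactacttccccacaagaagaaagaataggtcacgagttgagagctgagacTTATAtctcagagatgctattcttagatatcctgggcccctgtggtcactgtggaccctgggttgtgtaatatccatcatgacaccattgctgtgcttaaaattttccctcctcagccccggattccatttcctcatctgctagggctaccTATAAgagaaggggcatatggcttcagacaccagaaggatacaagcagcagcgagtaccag
Tnf: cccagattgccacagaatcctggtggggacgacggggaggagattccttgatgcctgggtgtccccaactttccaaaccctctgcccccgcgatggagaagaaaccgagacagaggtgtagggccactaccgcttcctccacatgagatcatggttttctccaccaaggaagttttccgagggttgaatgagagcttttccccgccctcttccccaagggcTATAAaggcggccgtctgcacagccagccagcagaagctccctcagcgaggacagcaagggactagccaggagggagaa
The Cxcl2 window held 3 matches to the NF-kappaB-like motif, which overlap in part, while the windows of Ccl3 and Tnf held 0. The Ccl3 window held 2 matches to TATAA and the Tnf window 1. Over 27025 mouse promoters of the same length, 5.52% held the NF-kappaB-like motif, 25.5% held TATAA and 7.93% held the AP-1 motif. A match is a string of letters, not a measured site.

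The treated library held 77856529 UMIs over 13155 barcodes and the control library 88567528 UMIs over 12516 barcodes. The libraries shared 45 barcode sequences, of which 1 belonged to a Ccl3/Ccl4 macrophage of the treated library and none to one in both. Summed over Ccl3/Ccl4 macrophages there were 1731639 UMIs in the treated library and 1143714 in the control library. Their median depth was 5419 UMIs and 1984 genes per cell in the treated library, against 5482.5 UMIs and 1944.5 genes in the control library. Levels are given as CPM (the summed UMIs of a gene per 1000000 summed UMIs of all genes), with exact Poisson 95% intervals, and ratios carry exact conditional 95% intervals. These intervals cover counting error only, not the spread between mice. Levels are per transcript end, so that levels of different genes are not scaled by length.

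Ccl3/Ccl4 macrophages made up 2.37% of kept barcodes in the treated library (exact Clopper-Pearson interval 2.11% to 2.65%) and 1.59% in the control library (1.38% to 1.83%). The ratio of these shares was 1.48 (1.23 to 1.79). Among macrophages, defined as barcodes with at least 3 C1q UMIs and no Cd3e or Cd79a, they were 13.3% of 2213 cells in the treated library (11.9% to 14.8%) and 12.7% of 1513 cells in the control library (11.1% to 14.5%). The higher share of all barcodes thus stood beside a higher number of macrophages, and within macrophages the intervals of the shares overlapped. Among cells that met every condition but the chemokine one, 59.8% of 493 in the treated library (55.4% to 64.2%) and 65.8% of 292 in the control library (60% to 71.2%) were members.

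The conditions cut the cells in steps. Of 2607 treated and 1894 control barcodes with enough C1q, 1600 and 1183 also had at least 5 chemokine UMIs, so that most C1q cells of either library passed that threshold. The resident set then removed most of them and left 492 treated and 340 control cells. Ccl3 and Ccl4 were thus no private feature of these cells: at least 5 UMIs of both together were also found in 63.8% of 1057 Lyve1-type macrophages of the treated library and 65.7% of 830 in the control library. Lyve1-type cells had at least 4 UMIs of the resident set and at most 1 of the foam cell set. In Gpnmb-type macrophages, chosen the other way round, the share was 44.6% of 148 cells in the treated library and 44.3% of 106 in the control library. T cells, with at least 2 UMIs of Cd3e and no C1q, passed the same chemokine threshold in 5.38% of 1617 cells in the treated library and 2.87% of 2609 in the control library, at median depths of 4917 and 4217 UMIs. Of barcodes with at least 2 UMIs of Cd3e, 6.42% in the treated library and 3.40% in the control library held at least 3 UMIs of C1q, a measure of free RNA and doublets together.

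**Figure D1:**
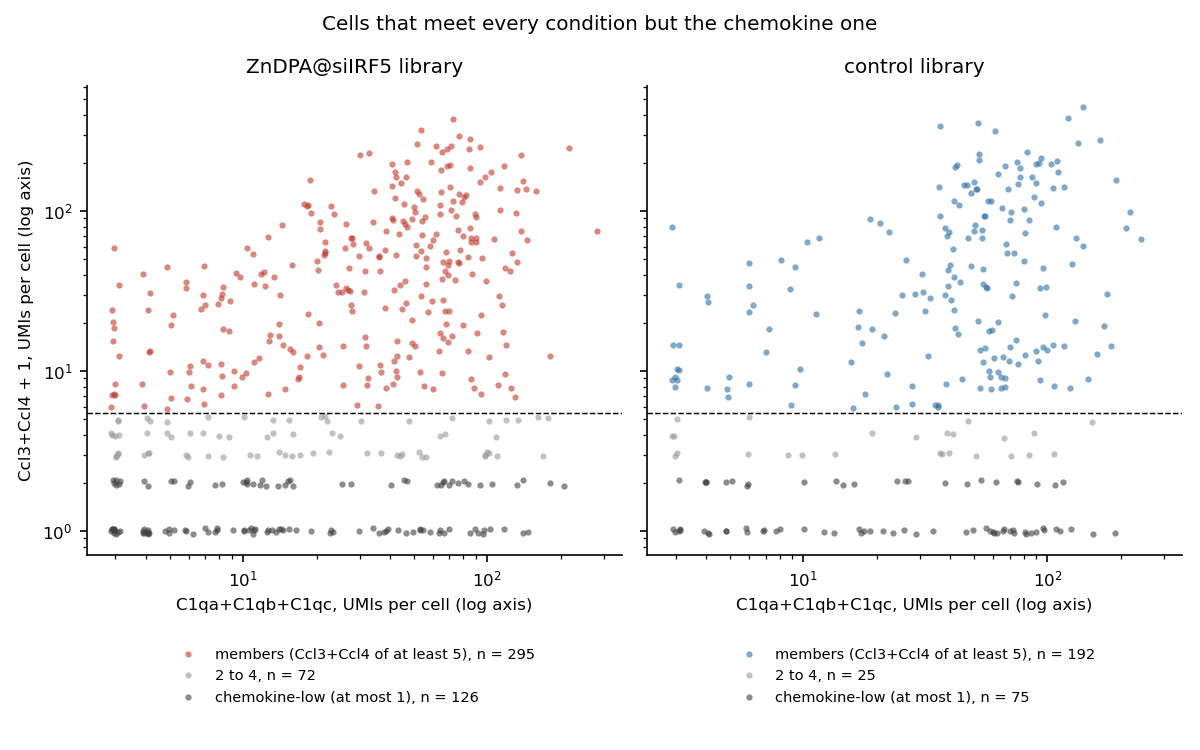
UMIs of Ccl3 and Ccl4 together, plus 1, against UMIs of C1qa, C1qb and C1qc together, for each cell that met every other condition (both axes logarithmic, points jittered slightly), in the treated library on the left and the control library on the right. The dashed line is the threshold of 5 chemokine UMIs; 295 treated and 192 control cells lie above it, and 126 treated and 75 control cells hold at most 1 chemokine UMI.

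The chemokine counts ran without a gap from the threshold upwards. The median cell held 39 UMIs of Ccl3 and Ccl4 together in the treated library (lowest 5, highest 380) and 33 in the control library (lowest 5, highest 443). Just inside the threshold, with 5 to 6 UMIs, lay 15 treated and 9 control cells, and just outside it, with 3 to 4 UMIs, lay 39 treated and 12 control cells. Ccl4 was the more abundant transcript in both libraries.

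Ccl4 stood at 8848 CPM in the treated library (8709 to 8989.5) and 9099 CPM in the control library (8925 to 9276). Ccl3 stood at 1665 CPM in the treated library (1605 to 1727) and 2209 CPM in the control library (2123 to 2296). The ratio of Ccl3 to Ccl4 UMIs was 0.188 in the treated library and 0.243 in the control library. Both transcripts were detected together in 242 of 295 treated cells and 161 of 192 control cells. Of all Ccl4 UMIs in kept barcodes these cells carried 14.9% in the treated library and 13.5% in the control library, less than the 26.7% and 36.0% carried by Lyve1-type macrophages, which outnumber them.

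The label was checked against macrophage markers. Of 9 markers other than Apoe, among them Adgre1, Csf1r, Cd68, Fcgr1, Mertk, Ms4a7, C3ar1 and Cx3cr1, at least 3 were detected in 87.1% of the Ccl3/Ccl4 macrophages of the treated library and 91.1% of those in the control library, with medians of 5 and 6 per cell. Ms4a7, a membrane protein gene typical of macrophages derived from monocytes and the marker of this label outside the rule, was at 440 CPM in the treated library and 638 CPM in the control library, a log2 ratio of -0.54 (-0.68 to -0.39). After thinning each cell to 3000 UMIs it was detected in 54.3% of 234 treated cells and 70.8% of the control cells. Without thinning the shares were 61.7% in the treated library and 72.4% in the control library. In T cells thinned to the same depth its share was 0.637% in the treated library and 0.927% in the control library, which is taken as the background. These T cells were chosen to hold no C1q, so this background leaves out barcodes with C1q RNA and may be too low. The median depths before thinning were 5419 and 5482.5 UMIs in the members and 4917 and 4217 UMIs in the T cells of the treated and control library. Ms4a7 is not particular to these cells: after thinning it was detected in 59.1% of treated and 67.3% of control Lyve1-type cells, which are C1q macrophages of the resident type, and in 64.2% and 76.2% of the lipid-laden Gpnmb-type cells. Apoe, abundant in most aortic macrophages, was nearly absent, at 5.71 CPM over all macrophages of the treated library and 6.17 CPM over those of the control library. The labels do not give the genotype, and the cause of the low Apoe was not tested.

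Markers of other cells were present in part of the members. Neutrophil markers (S100a8, S100a9 and 5 others) summed to 2898 CPM in the treated library and 1764 CPM in the control library, with 23.2% and 33.8% of these UMIs in a single cell. More neutrophil than macrophage marker UMIs were found in 7.46% of the treated and 5.73% of the control members. Monocyte markers (Ly6c2, Plac8, Chil3 and 4 others) summed to 871 CPM in the treated library and 523 CPM in the control library. Plasma cell markers (Jchain, Mzb1 and Igkc) summed to 1048 CPM in the treated library and 2368 CPM in the control library, where 146 of 192 cells held at least 10 such UMIs. T cell markers were at 47.9 CPM in the treated and 37.6 CPM in the control library, B cell markers at 26.0 and 47.2 CPM. Mast cell markers were at 103 CPM in the treated library, with 97.8% of them in 1 cell, and smooth muscle markers at 166 CPM in the control library, with 97.4% of them in 1 cell. Scrublet called 11 treated and 0 control members doublets. The part of such cells and of free RNA in the differences between the libraries was not tested beyond the alternatives given at the end.

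The most abundant inflammatory transcript beside the 2 chemokines was Cxcl2, which encodes a ligand of the neutrophil receptor Cxcr2. Cxcl2 stood at 13172 CPM in the treated library (13002 to 13344) and 16102 CPM in the control library (15870 to 16336). Chemokine-low macrophages, which met every other condition but held at most 1 UMI of Ccl3 and Ccl4, had 2056 CPM of Cxcl2 in the treated library and 2743 CPM in the control library. There were 126 such cells in the treated library and 75 in the control library, with median depths of 4470 and 4312 UMIs, below those of the members. Since the threshold was set on raw UMIs, deeper cells passed it more easily. The classes also differed in C1q. At least 15 C1q UMIs were held by 224 of 295 treated and 160 of 192 control members. Among chemokine-low cells it was 56 of 126 in the treated and 46 of 75 in the control library. The part of C1q content in the ratios below was not tested beyond an alternative with at least 15 C1q UMIs.

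Over all 3352 genes that were abundant enough (at least 50 UMIs and 20 CPM on one side in each library), 91 (2.71%) were at least 2-fold higher in Ccl3/Ccl4 macrophages than in chemokine-low macrophages in both libraries, and 14 (0.418%) were at least 2-fold lower in both. These counts describe cells that were sorted by chemokine counts. The median log2 ratio over the genes was -0.05 in either library.

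Among CC chemokines other than Ccl3 and Ccl4, 4 of 8 measured genes were at least 2-fold higher in both libraries and 6 of 8 were above 0 in both, against 31.2% of all genes above 0 in both. Ccl2, the ligand of Ccr2 that draws monocytes out of the marrow and into tissue, was at 1552 CPM in the treated library and 1913 CPM in the control library. In chemokine-low macrophages it was at 225 and 157 CPM, which gave log2 ratios of 2.79 (2.54 to 3.04) within the treated library and 3.61 (3.25 to 3.99) within the control library. For Ccl7, which also acts on Ccr2, these ratios were 2.19 and 3.46. Ccl5, which draws T cells and monocytes, was at 462 CPM in the treated library and 476 CPM in the control library, with ratios over chemokine-low cells of 1.58 and 2.25. In cells with at most 1 UMI of lymphocyte and neutrophil markers the Ccl5 ratio in the treated library was 0.60. Ccl12 followed the same direction, with ratios of 1.48 and 2.68.

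Of 6 CXC chemokines, 3 were at least 2-fold higher in both libraries and 1 at least 2-fold lower. Cxcl1, like Cxcl2 a ligand of Cxcr2, had log2 ratios over chemokine-low cells of 2.39 in the treated library and 3.44 in the control library. Cxcl10, an interferon-induced ligand of Cxcr3, had ratios of 1.12 and 3.31. Cxcl9, which binds the same receptor and is induced chiefly by interferon gamma, went the other way. It stood at 51.4 CPM in the treated library and 28.9 CPM in the control library, against 328 and 144 CPM in chemokine-low cells, with log2 ratios of -2.67 (-3.05 to -2.31) and -2.32 (-2.99 to -1.68). In the treated library 66.3% of the Cxcl9 UMIs of the members came from a single cell.

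Of 12 cytokines and mediators, 7 were at least 2-fold higher in both libraries than in chemokine-low cells. Tnf, the gene of the cytokine tumour necrosis factor, was at 1029 CPM in the treated library (981 to 1077) and 1032 CPM in the control library (974 to 1092). Its log2 ratio over chemokine-low cells was 2.33 (2.07 to 2.61) in the treated library and 2.52 (2.18 to 2.89) in the control library. Il1b behaved differently. It was at 3929 CPM in the treated library and 4349 CPM in the control library, and nearly as high in chemokine-low cells, with ratios of 0.19 (0.12 to 0.26) and 0.21 (0.12 to 0.29). Il1a had ratios of 1.87 and 2.40, Il6 of 1.74 and 3.19, and Il10, the gene of an anti-inflammatory cytokine, of 1.13 and 2.09. Without the few cells that hold Prg4 and Alox15, the Il6 ratio in the control library was 2.13, and these cells carried 54.8% of the Il6 UMIs of the control members. With each cell weighing the same, the Il10 ratio in the control library was 1.10. Neutrophil markers, whose cells also make Il1b, summed to 2898 CPM in the members and 4945 CPM in the chemokine-low cells of the treated library, and to 1764 CPM in the members and 3206 CPM in the chemokine-low cells of the control library. In the chemokine-low cells 62.3% of these UMIs came from 1 cell in the treated library and 38.9% in the control library. In cells with at most 1 UMI of lymphocyte and neutrophil markers the Il1b ratios over chemokine-low cells were -0.04 and 0.20.

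Sensors and effectors of the type I interferon response were also higher in part. Of 23 such genes, 4 were at least 2-fold higher in both libraries. Ifih1, which encodes the RNA sensor MDA5, was at 885 CPM in the treated library and 764 CPM in the control library, with log2 ratios over chemokine-low cells of 2.38 and 3.40. Oasl1 had ratios of 2.53 and 2.75, and Ifit1 of 2.34 and 2.64. With each cell weighing the same, the Ifit1 ratios were 0.94 and 1.07. Genes of the interferon gamma response pointed the other way: of 17 measured, 13 were below 0 in both libraries, against 40.1% of all genes, 2 were at least 2-fold lower and 1 at least 2-fold higher.

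Of 25 NF-kappaB subunits and feedback genes, 17 were above 0 in both libraries, but 1 was at least 2-fold higher in both. Tnfaip3, which encodes the NF-kappaB inhibitor A20, had log2 ratios over chemokine-low cells of 0.95 in the treated library and 0.96 in the control library, and Nfkbia, which encodes the inhibitor I kappa B alpha, of 0.49 and 0.21. Of 20 immediate early genes, 16 were above 0 in both and 4 were at least 2-fold higher in both. Egr1 had ratios of 1.75 and 1.44, Egr2 of 1.87 and 1.45, and Atf3 of 1.31 and 1.45. Fos had ratios of 0.56 and 0.46. Tissue dissociation is known to induce these genes, and its part was not tested. With each cell weighing the same, the ratios in the control library were 0.57 for Egr1 and 0.54 for Egr2.

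The 15 genes with the highest ratio over chemokine-low cells in the less extreme library included further genes that are not chemokines. Ch25h, the gene of cholesterol 25-hydroxylase, which macrophages switch on after interferon and Toll-like receptor signals, was at 38.7 CPM in the treated library and 67.3 CPM in the control library, with log2 ratios of 3.01 (1.40 to 5.32) and 2.43 (1.15 to 4.10). With each cell weighing the same, the Ch25h ratio in the control library was 1.33. Rcan1, a regulator of calcineurin, had ratios of 3.0 and 2.39. Among genes detected in at least 20% of the members, Ptger4 (a prostaglandin E2 receptor), Plau (urokinase), Phlda1, Ppp1r15a (a stress-induced regulator of translation), Noct and Errfi1 were also among the 15 highest, with ratios from 1.61 to 2.77 over both libraries. Serpinb2, Prg4 and Alox15 were on the list through a few cells that are described further on.

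Some of the 10 genes with the lowest ratios follow. Plac8, a gene of circulating monocytes, had log2 ratios of -1.65 in the treated library and -1.22 in the control library. Ifi30, which encodes a lysosomal thiol reductase of antigen processing, had ratios of -1.22 and -1.31, and Napsa of -1.07 and -2.11. Ifitm1 had ratios of -2.04 and -1.96, and C3, the central complement component, of -1.86 and -1.62. Among cells with at least 15 C1q UMIs the Ifitm1 ratio in the control library was -0.04, and with each cell weighing the same the C3 ratio there was -0.99. Monocyte markers as a list summed to 871 CPM in the members against 2374 CPM in chemokine-low cells of the treated library, and to 523 against 934 CPM in the control library. All 18 genes of oxidative phosphorylation were below 0 in both libraries, with median log2 ratios of -0.46 in the treated and -0.40 in the control library. Class II genes did not separate the cells: Cd74 had ratios of 0.15 and 0.05.

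Against the other macrophages of the same libraries, the inflammatory genes fell into separate patterns. Il1b was at 3929 CPM in Ccl3/Ccl4 macrophages against 792 CPM in Lyve1-type cells of the treated library, and at 4349 against 786 CPM in the control library. The log2 ratios were 2.31 (2.26 to 2.36) and 2.47 (2.41 to 2.53). Ptgs2, the gene of cyclooxygenase-2, had ratios of 1.62 and 1.43 over Lyve1-type cells, and Ccl5 of 1.33 and 1.43. Tnf differed less, with ratios of 0.82 and 0.55. The chemokines of the Ccr2 pathway were lower than in Lyve1-type cells, with ratios of -0.82 and -0.71 for Ccl2 and of -1.22 and -0.81 for Ccl7. Cxcl2 differed little from Lyve1-type cells, with ratios of 0.30 and 0.11.

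Genes outside the rule were read in the same classes. Mrc1, the mannose receptor gene of resident macrophages, was at 405 CPM in the treated library and 354 CPM in the control library, against 1486 and 1524 CPM in Lyve1-type cells. It was above the 95.9 and 145 CPM of Gpnmb-type cells. Trem2, a lipid receptor gene of foam cells, was at 136 CPM in the treated library and 157 CPM in the control library, against 137 and 115 CPM in Lyve1-type cells and 693 and 690.3 CPM in Gpnmb-type cells. Cd74, the class II invariant chain, was higher than in both other classes, at 16662 CPM in the treated library and 18856 CPM in the control library, against 9416 and 9611 CPM in Lyve1-type cells and 8591 and 6411 CPM in Gpnmb-type cells. Csf1r, the receptor gene for the macrophage growth factor, had log2 ratios over Lyve1-type cells of -0.81 and -0.92 and over Gpnmb-type cells of 0.10 and -0.08.

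**Figure D2:**
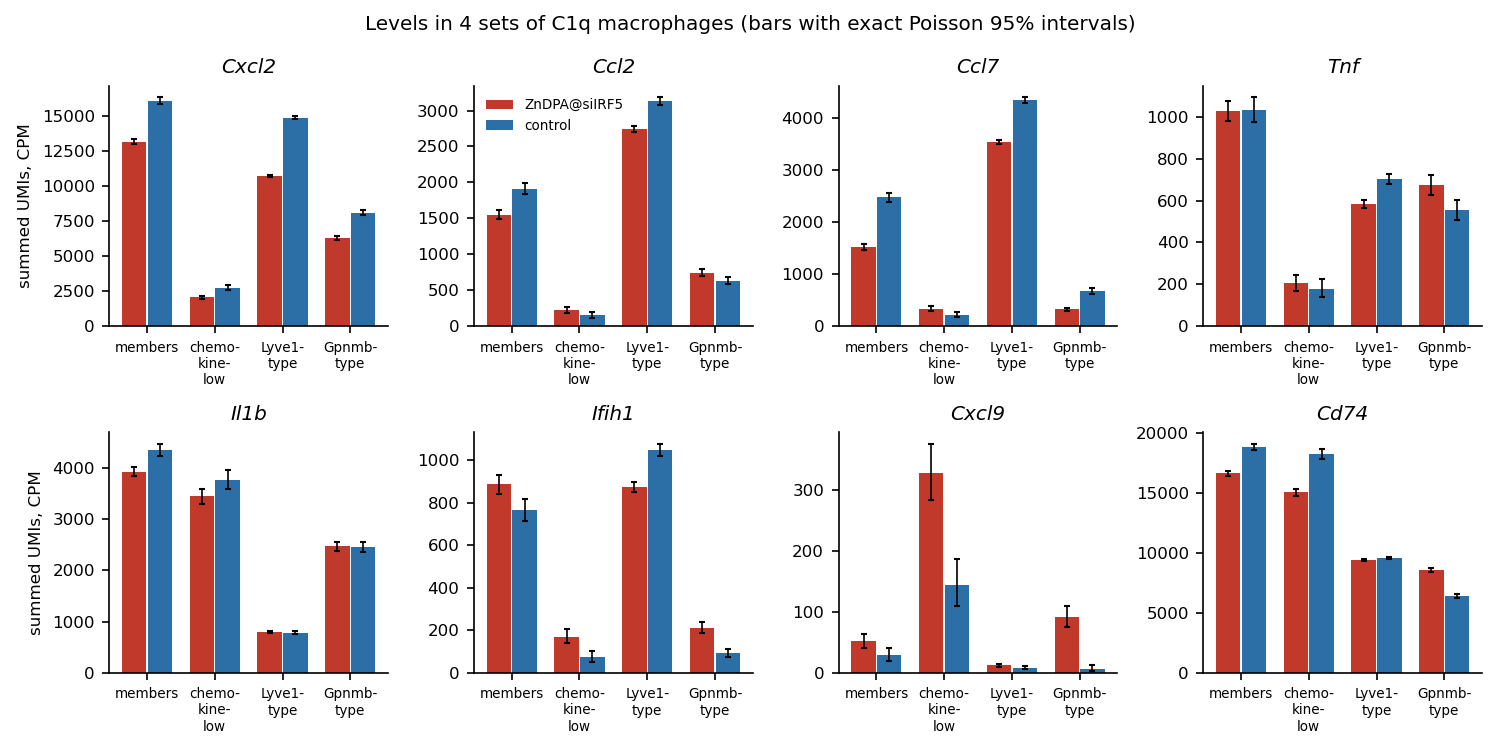
CPM of summed UMIs of 8 genes in members (Ccl3/Ccl4 macrophages), chemokine-low, Lyve1-type and Gpnmb-type macrophages, treated library in red and control library in blue, with exact Poisson 95% intervals. Tnf is highest in the members, Ccl2 and Ccl7 are highest in Lyve1-type cells, Il1b is high in both members and chemokine-low cells, and Cxcl9 is highest in chemokine-low cells.

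Within the members, cells with more chemokine UMIs also held more of several other transcripts. The cells were split at 5 to 9, 10 to 19, 20 to 49 and at least 50 UMIs of Ccl3 and Ccl4, which gave 46, 51, 75 and 123 cells in the treated library and 38, 35, 41 and 78 in the control library. Of 40 genes picked for this, most of them inflammatory or macrophage genes, 25 were higher in the highest than in the lowest of these classes in both libraries, against 799 (23.9%) of 3346 genes abundant in both. With classes set by chemokine UMIs per 10000 UMIs of the cell it was 27, against 25.1% of the 3346. The genes were picked with earlier results known, so nothing is read from the difference. Classes hold cells of unequal depth, and CPM of summed UMIs was used for that reason. Neutrophil RNA differed between classes too. S100a9 was at 773 and 933 CPM in the lowest and highest treated classes and at 2345 and 598 CPM in the control classes. With classes by UMIs per 10000 it was at 1795 and 293 CPM in the treated and 1167 and 98.5 CPM in the control library. The part of this in the orders below was not tested.

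Ccl7 was higher at each step in both libraries. In the treated library Ccl7 was at 422 CPM in the lowest class and 1975 CPM in the highest, and in the control library at 690.5 and 4311 CPM. Ccl2 was also higher at each step, at 768 CPM in the lowest and 1888 CPM in the highest class of the treated library and at 880.2 and 2864 CPM in the control library. Oasl1 and Ch25h shared this order of values in both libraries. Oasl1 was at 135 and 727 CPM in the lowest and highest treated classes and at 232 and 628 CPM in the control classes. Ch25h rested on few UMIs, with 1, 6, 11 and 49 over the treated classes and 4, 5, 12 and 56 over the control classes. Intervals of neighbouring classes overlapped at some steps for each of these genes. They did so between the lowest and second control classes for Ccl2, Oasl1 and Ch25h.

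Tnf and Cxcl2 were about 2-fold apart between the outer classes. For Tnf the lowest and highest classes held 669 and 1315 CPM in the treated library and 796 and 1564 CPM in the control library, a fold of 1.96 and 1.97. Cxcl2 was at 8094 CPM in the lowest and 16398 CPM in the highest class of the treated library, and at 10910.5 and 21158 CPM in the control library. Il1b had no such order. From the lowest to the highest class it was at 3988, 4299, 3765 and 3866 CPM in the treated library. In the control library it was at 4053, 5042, 3936 and 4351 CPM. Il1a had no order either, at 211, 144, 159 and 174 CPM from the lowest to the highest class of the treated library and at 274, 73.7, 186 and 284 CPM in the control library. Il6 was highest in the third of these classes in both libraries. From the lowest to the highest class it was at 121, 127, 247 and 61.3 CPM in the treated library. The control library had 121, 18.4, 229.7 and 47.4 CPM. With classes set by chemokine UMIs relative to all UMIs of the cell, Il6 was highest in the second class of both libraries. Its values were then 126, 278, 75.1 and 51.3 CPM in the treated library and 137, 157, 66.5 and 18.5 CPM in the control library. The place of the peak thus depended on how the classes were set. The few cells that hold Prg4 and Alox15 carried 54.8% of the control Il6 UMIs, and their part was not tested. In the classes by raw chemokine UMIs, Csf1r was level, with log2 ratios of highest over lowest class of -0.19 and 0.26.

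**Figure D3:**
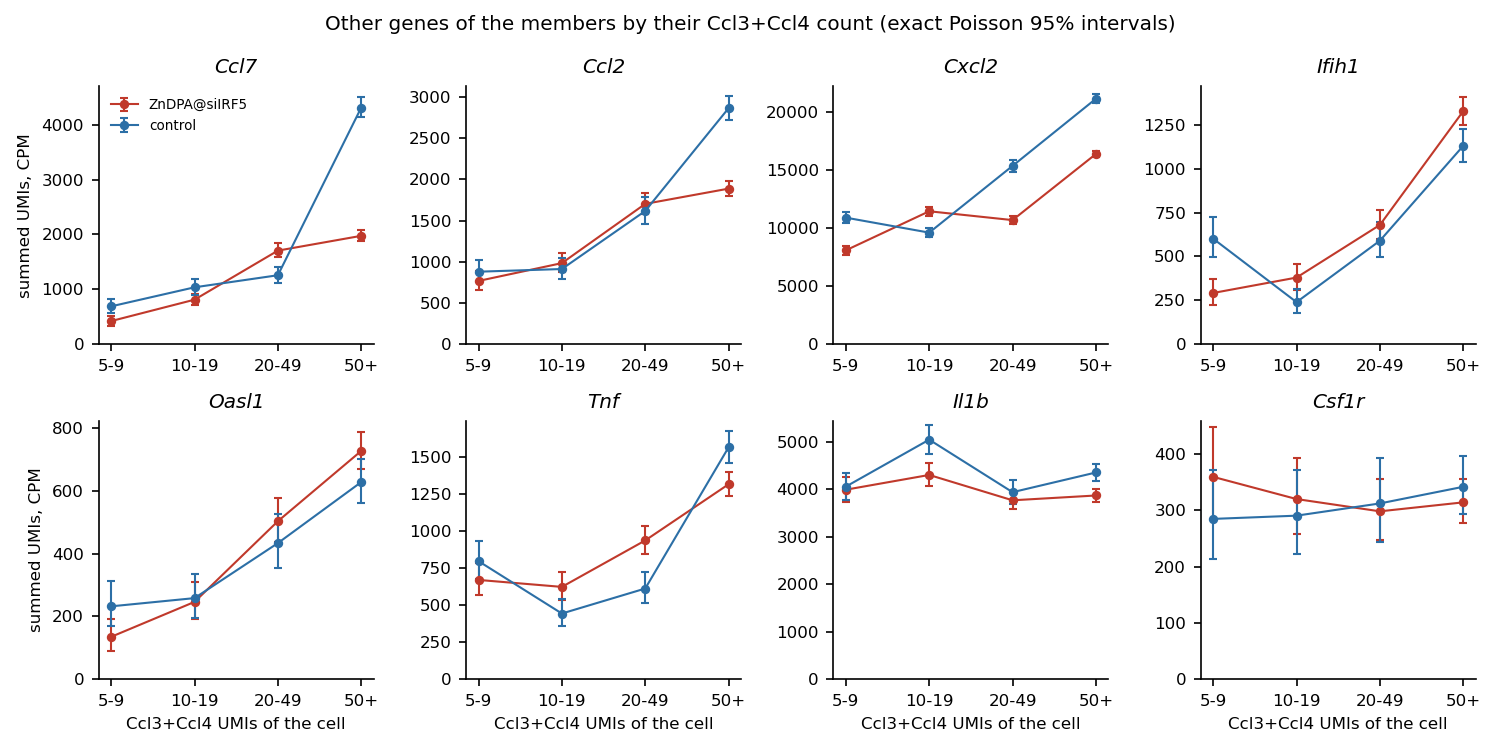
CPM of 8 genes in the Ccl3/Ccl4 macrophages split by their UMIs of Ccl3 and Ccl4 together (5 to 9, 10 to 19, 20 to 49, at least 50), treated library in red and control library in blue, with exact Poisson 95% intervals. Ccl7, Ccl2 and Oasl1 are higher at each step in both libraries, though intervals overlap at some steps. Il1b and Csf1r differ little between the outer classes.

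The members were also split by their raw C1q UMIs. In the treated library 71 cells (24.1%) had 3 to 14 C1q UMIs, 126 (42.7%) had 15 to 59 and 98 (33.2%) had at least 60, and in the control library 32 (16.7%), 82 (42.7%) and 78 (40.6%). Depth rose along these classes, with medians of 2493, 4819 and 6674.5 UMIs in the treated library and 3296, 4712 and 6522 in the control library. The part of depth in the orders below was not tested. The class with least C1q held the most Il1b in both libraries, at 5582, 4184 and 3086 CPM from the lowest to the highest class in the treated library and 6384, 4748 and 3613 CPM in the control library. Ms4a7 had the opposite order, at 159, 357 and 621 CPM in the treated library and 110, 567 and 808 CPM in the control library. The neutrophil transcript S100a8 was at 2532, 1637 and 83.2 CPM from the lowest to the highest class in the treated library and at 3115, 53.7 and 451 CPM in the control library. Neutrophil RNA was thus found most in the lowest class of both libraries and also in the middle class of the treated library, and its part in the order of Il1b over the classes was not tested.

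Between the libraries, 4533 genes were abundant enough to compare within the Ccl3/Ccl4 macrophages. Of these, 314 (6.93%) were at least 1.5-fold higher in the treated library and 181 (3.99%) at least 1.5-fold lower. The median log2 ratio over all genes was 0.06, the central 95% ran from -0.69 to 0.83, and 57.2% were above 0. Each list below is read beside these values.

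Irf5, the gene named by the small interfering RNA, was at 153 CPM in the treated library and 156 CPM in the control library, a log2 ratio of -0.02 (-0.30 to 0.26). In cells thinned to 3000 UMIs it was detected in 35.9% of treated and 37.5% of control cells. The shares were 3.96% and 2.93% in T cells, which were chosen to hold no C1q. A lower Irf5 transcript level in the treated library was thus not detectable at this depth, with a lower bound of -0.30 on the log2 scale, and protein was not measured. In Lyve1-type cells the members were compared with, Irf5 was lower than in the members, with log2 ratios of members over Lyve1-type cells of 0.51 in the treated and 0.60 in the control library.

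Of the IRF family, 3 of 8 measured genes were at least 1.5-fold higher in the treated library and 0 lower, with a list median of 0.36. Irf7, an amplifier of the type I interferon response, had a log2 ratio of 0.62 (0.29 to 0.96), and Irf1, induced by interferon gamma, of 0.62 (0.25 to 0.99). Irf8, which sets monocyte and dendritic cell fate, had a ratio of -0.54 (-0.84 to -0.24). Of 16 Toll-like receptors and adaptors, 1 was at least 1.5-fold higher and 0 lower, with a median of -0.02. The receptor gene Tlr2 was at 421 CPM in the treated and 454 CPM in the control library, and Cd14, the co-receptor for lipopolysaccharide, at 1901 and 2168 CPM.

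CC chemokine genes were more often lower than higher in the Ccl3/Ccl4 macrophages of the treated library. Of 9 CC chemokines other than Ccl3 and Ccl4, 2 were at least 1.5-fold lower and 1 higher, 3 were above 0, and the list median was -0.30. The median of this list was 0.54 in chemokine-low cells, -0.17 in Lyve1-type cells, 0.02 in Gpnmb-type cells and 0.14 in T cells. Ccl7 had the log2 ratio -0.70 (-0.78 to -0.62), Ccl8 -0.87 (-1.09 to -0.65), Ccl12 -0.41 (-0.57 to -0.26) and Ccl2 -0.30 (-0.38 to -0.22). These are chemokines of 1 gene cluster, and in the control library 31.8% of the Ccl8 UMIs came from 1 cell. With each cell weighing the same, the Ccl8 ratio was -0.23. Ccl6 and Ccl9, which myeloid cells make without strong induction, were higher in the treated library, with ratios of 0.40 and 0.54. Ccl5 was at 462 CPM in the treated library and 476 CPM in the control library, with an interval of the ratio from -0.20 to 0.12. In cells with at most 1 UMI of lymphocyte and neutrophil markers the Ccl5 ratio was -1.19.

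Of 7 CXC chemokines, 2 were at least 1.5-fold higher and 1 lower, with a median of -0.16. Cxcl2 had a ratio of -0.29 (-0.32 to -0.26) and Cxcl1 of -0.25 (-0.36 to -0.15). Cxcl10 had a ratio of 0.37 (0.24 to 0.50). The lower Cxcl2 was seen in the other macrophages of the treated library too, at 10725 CPM against 14887 CPM in Lyve1-type cells and 6315 CPM against 8084 CPM in Gpnmb-type cells. In T cells Cxcl2 was at 481 CPM in the treated library and 244 CPM in the control library.

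Cytokines and mediators had a median of -0.15 over 17 genes, with 2 at least 1.5-fold higher and 2 lower. The median of this list was 0.14 in chemokine-low cells, 0.05 in Lyve1-type cells and 0.25 in Gpnmb-type cells. In T cells it was 1.19, with 13 of 17 at least 1.5-fold higher and 1 lower, and the cause was not tested. The Tnf ratio had an interval from -0.11 to 0.10 around equal levels. Il1b was slightly lower in the treated library, with a log2 ratio of -0.15 (-0.20 to -0.09), and Il1a was lower by more, at -0.39 (-0.64 to -0.14). Il1rn, the natural antagonist of both, had a ratio of -0.47 (-0.67 to -0.28). Tnfsf9, which encodes the costimulatory ligand of CD137, had a ratio of 0.53 (0.36 to 0.70), Osm (oncostatin M) of 0.37 (0.08 to 0.66) and Ptgs2 of 0.28 (0.13 to 0.44). The Il10 ratio of -0.15 had an interval from -0.35 to 0.04.

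Receptors for these signals were read as well. Of 8 receptor genes, 1 was at least 1.5-fold lower and 0 higher, with a median of -0.17. C3ar1, the receptor gene for the complement fragment C3a, was at 311 CPM in the treated library and 487 CPM in the control library, a log2 ratio of -0.65 (-0.82 to -0.47). C5ar1, for C5a, had a ratio of -0.52 (-0.67 to -0.38), and Ccr1, a receptor of Ccl3, of -0.55 (-0.94 to -0.15). Ccr2, the monocyte receptor for Ccl2 and Ccl7, had a ratio of 0.49 (0.27 to 0.71), and Cxcr4 of 0.52 (0.30 to 0.74).

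NF-kappaB subunits and feedback genes had a median of 0.01 over 25 genes, with 1 at least 1.5-fold higher and 2 lower. Nfkb1 had a ratio of -0.29 (-0.37 to -0.21) and Tnip3, an A20-binding inhibitor, of -0.72 (-0.89 to -0.54). Nfkbiz had a ratio of 0.32 and Tnfaip3 of 0.40. Zfp36, which encodes the protein tristetraprolin that destabilizes cytokine transcripts such as Tnf, was at 1787 CPM in the treated library and 1200.5 CPM in the control library, a ratio of 0.57 (0.48 to 0.67). Immediate early genes were higher as a list, with 17 of 20 above 0, 3 at least 1.5-fold higher, 0 lower and a median of 0.31. Klf2 had a ratio of 0.70, Atf3 of 0.53 and Egr1 of 0.39.

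Heat shock genes had a median of 0.59, with 5 of 10 at least 1.5-fold higher and 1 lower. Hspa1a, an inducible chaperone gene, was at 566 CPM in the treated library and 278 CPM in the control library, a log2 ratio of 1.03 (0.84 to 1.21), and Hspa1b had a ratio of 1.35 (1.14 to 1.57). For Hspa1b, 39.0% of the control UMIs came from 1 cell, and Hspa1a and Hspa1b are near-identical copies whose reads can be split between them. Hsp90aa1 had a ratio of 0.67. The median of the same list was 0.35 in chemokine-low cells, 0.17 in Lyve1-type cells, -0.15 in Gpnmb-type cells and 0.11 in T cells.

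Interferon response lists had medians above 0, treated over control, in each of the 4 macrophage classes. Of 17 genes of the interferon gamma response, 8 were at least 1.5-fold higher in Ccl3/Ccl4 macrophages and 0 lower, with a median of 0.44. The guanylate-binding protein genes Gbp2 (75.1 CPM in the treated and 36.7 CPM in the control library), Gbp3 (38.7 and 16.6 CPM) and Gbp5 (49.7 and 19.2 CPM) led the list, with log2 ratios of 1.03, 1.22 and 1.37. Of 24 type I interferon response genes, 7 were at least 1.5-fold higher and 1 lower, with a median of 0.35. Rsad2 (viperin) had a ratio of 0.62 and Ifit3 of 1.07. For the interferon gamma list the median was 1.18 in chemokine-low cells, 0.75 in Lyve1-type cells, 0.76 in Gpnmb-type cells and -0.04 in T cells. For the type I list it was 0.85, 0.32, 0.37 and -0.25 in the same order. Whether the macrophage classes differ in this was not tested.

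Recruited monocyte genes had the highest median of all lists, 0.84, with 8 of 12 at least 1.5-fold higher and 0 lower. S100a4 was at 623 CPM in the treated library and 320 CPM in the control library, a log2 ratio of 0.96 (0.79 to 1.14). Plac8 had a ratio of 0.95 (0.76 to 1.14), Chil3 of 1.40 (0.97 to 1.86) and Fn1 (fibronectin) of 0.92 (0.77 to 1.08). Without the few cells that hold Prg4 and Alox15 the Fn1 ratio was 2.10. In cells with at most 1 UMI of lymphocyte and neutrophil markers the S100a4 ratio was 0.34, that of Plac8 1.99 and that of Ly6c2 1.38. Ly6c2, the gene of the classical monocyte antigen Ly6C, did not share this, at 132 CPM in the treated and 145 CPM in the control library over all members (-0.43 to 0.16). In chemokine-low cells the list had a median of 0.65, with 7 of 12 at least 1.5-fold higher and 1 lower. Its median was 0.42 in Lyve1-type cells, 0.06 in Gpnmb-type cells and 0.44 in T cells of the same libraries.

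Macrophage identity genes leaned lower, with a median of -0.13 over 21 genes. The median of this list was 0.09 in chemokine-low cells, -0.05 in Lyve1-type cells and 0.04 in Gpnmb-type cells. In T cells it was 0.67, with 11 of 20 at least 1.5-fold higher and 0 lower. Adgre1, the gene of F4/80, had a log2 ratio of -0.49 (-0.65 to -0.34). Maf, a transcription factor of macrophages, had a ratio of 0.97 (0.62 to 1.33). Csf1r was at 317 CPM in either library. The lower Adgre1 and Ms4a7 stood beside the larger share of cells with few C1q UMIs in the treated library, and with it the higher monocyte and neutrophil marker sums. Within the C1q classes given above, from lowest to highest, Adgre1 was at 211, 349 and 498 CPM in the treated library. In the control library it was at 272, 530 and 630 CPM, and the intervals of the lowest class overlapped. Ms4a7 was lower in the treated library in the middle and highest classes, but not in the lowest. The part of the class shares and marker sums in the ratios was not tested.

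Other lists varied around 0. Genes of the engulfment of dying cells had a median of -0.12 over 22 genes with 1 higher and 4 lower, and Pparg, a nuclear receptor of lipid handling, had a ratio of -0.77 (-0.99 to -0.54). Itgav, a receptor subunit for dying cells, had a ratio of -0.48 (-0.60 to -0.37). Genes that restrain phagocytosis had a median of 0.08 over 9, class II and costimulation genes of -0.05 over 10, and foam cell genes outside the rule of 0.04 over 17. Resident genes outside the rule had a median of -0.31 over 12, with Igf1 at -0.77 (-1.10 to -0.45). Circadian clock genes had a median of 0.51 over 12, with 5 higher and 2 lower; Per1 was at 63.5 CPM in the treated and 31.5 CPM in the control library. Medians were 0.20 for oxidative phosphorylation, 0.27 for glycolysis and 0.20 for apoptosis.

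**Figure D4:**
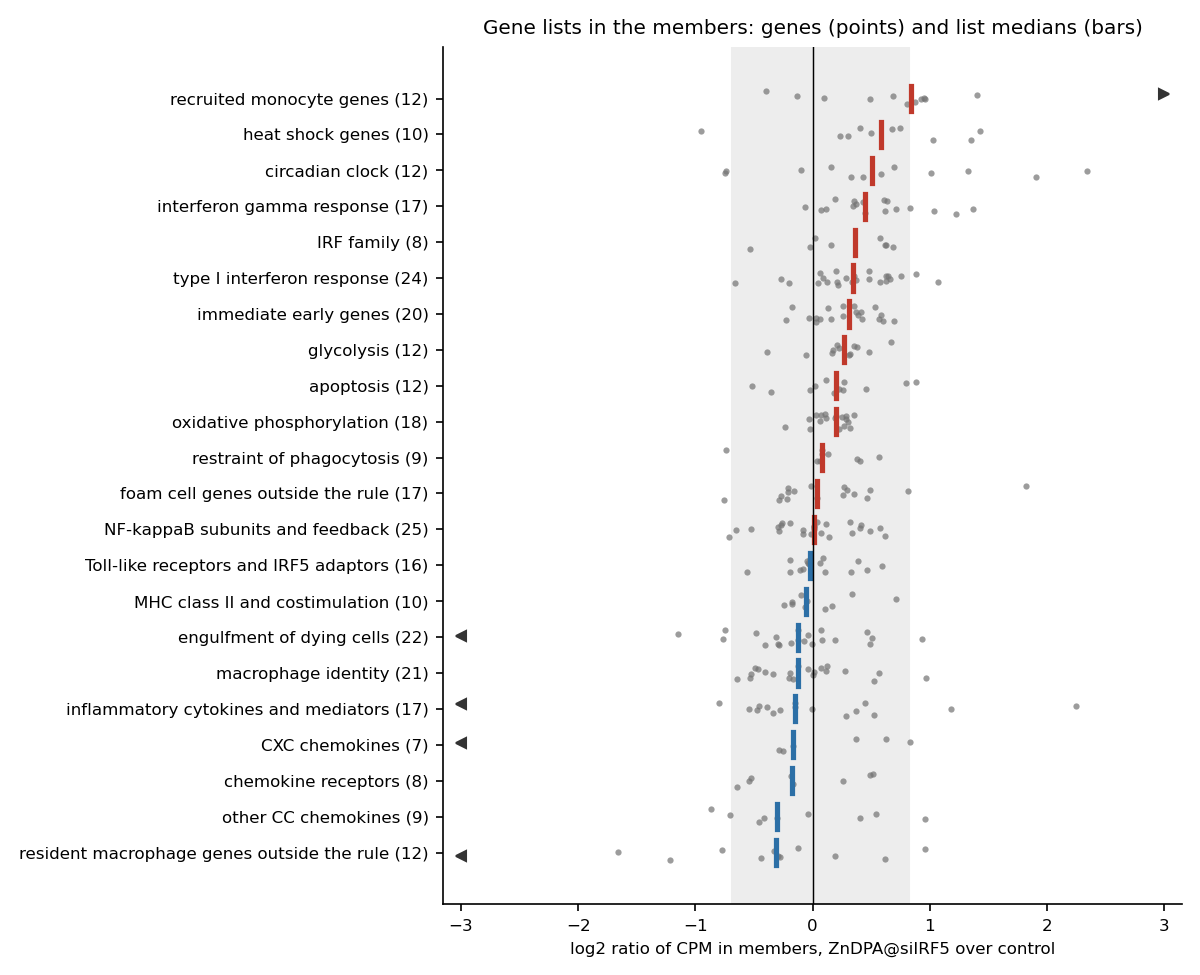
Log2 ratio of CPM in Ccl3/Ccl4 macrophages, treated library over control library, for the genes of 22 lists with at least 20 UMIs (points; arrowheads lie beyond the axis), with list medians as bars (red above 0, blue below) and the number of genes in brackets. The grey band holds the central 95% of all 4533 genes, -0.69 to 0.83; the recruited monocyte list has the highest median, 0.84, and the resident list the lowest, -0.31.

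Single cells weighed on the genes with the most extreme ratios. Of the 12 highest, 8 had over 25% of their UMIs in 1 cell of the library with the higher level, and of the 12 lowest, 7 did. Mcpt4, a mast cell protease gene, had 97.7% of its 86 treated UMIs in 1 cell, and Retnla 64.7% of 1330. The lowest, Cxcl13, had a log2 ratio of -7.44, with 2 UMIs in the treated and 230 in the control library. The list was therefore also drawn from 3300 broadly detected genes, of which 139 (4.21%) were at least 1.5-fold higher and 100 (3.03%) lower. These were detected in at least 20% of the members of a library, with at most 10% of their UMIs in 1 cell there. In the other library the share in 1 cell could be larger, at 20.4% of the control UMIs of Hspa1a and 17.6% of the treated UMIs of Apbb2.

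Among these broadly detected genes, S100a6, a calcium-binding protein gene, was at 1355 CPM in the treated library and 593 CPM in the control library, a log2 ratio of 1.19 (1.07 to 1.32). In cells with at most 1 UMI of lymphocyte and neutrophil markers the S100a6 ratio was 0.52. Insig1, a sterol-regulated brake on cholesterol synthesis, had a ratio of 1.02 (0.52 to 1.54). Gnpda1, Esyt1, Lars2, Stxbp6, Plxnd1, Tent5a, Bccip, Lgals8 and Hspa1a were also among the 12 highest, with ratios from 1.02 to 1.37 over the 12.

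Apbb2 had the lowest ratio, at 29.5 CPM in the treated library and 139 CPM in the control library, with a log2 ratio of -2.24 (-2.72 to -1.78). It was detected in 9.15% of treated and 26.0% of control cells. Pmepa1, a target and inhibitor of TGF-beta signalling, was at 65.8 CPM in the treated library and 223 CPM in the control library, a ratio of -1.76 (-2.09 to -1.44). Rnf180 was at 86.0 CPM in the treated and 220.3 CPM in the control library (-1.66 to -1.06), and Dst, the gene of the cytolinker dystonin, at 242 and 508 CPM (-1.26 to -0.89). Pxdc1, Bcl2a1a, Fblim1, Ppfibp1, Kcnk13, Prag1, Arhgap22 and Nup210l had ratios from -1.41 to -1.04. The Prag1 ratio was -0.21 in cells with at most 1 UMI of lymphocyte and neutrophil markers. Bcl2a1a has near-identical copies, so that its count is uncertain.

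The same genes were read in the other macrophages. All 12 of the lowest were below 0 in Lyve1-type cells, with a median of -0.43, 10 were below 0 in Gpnmb-type cells (median -0.50) and 10 in chemokine-low cells (median -1.28). Of the 11 named among the 12 highest, 10 were above 0 in Lyve1-type cells (median 0.35), 7 in Gpnmb-type cells (median 0.09) and 9 in chemokine-low cells (median 0.43). These genes were chosen for their ratio in the Ccl3/Ccl4 macrophages, so the values elsewhere are a description, and no difference between classes was tested.

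**Figure D5:**
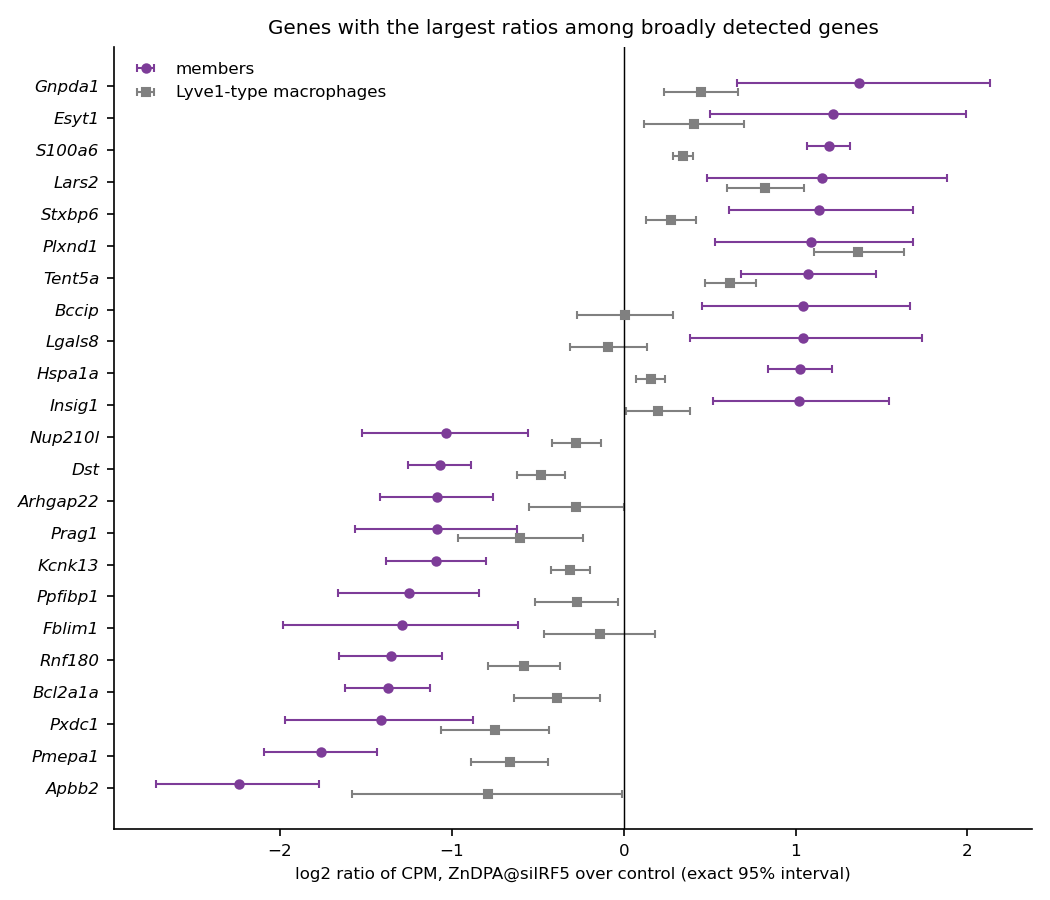
Log2 ratio of CPM, treated library over control library, with exact 95% intervals, for 11 of the 12 highest and the 12 lowest broadly detected genes of the Ccl3/Ccl4 macrophages (circles, labelled members) and for the same genes in Lyve1-type macrophages (squares). All 12 of the lowest genes lie below 0 in Lyve1-type cells as well.

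A handful of members stood apart. In 6 treated and 5 control cells there were at least 3 UMIs of Prg4 and Alox15 together, genes known in mice from resident macrophages of the body cavities. These cells had a median of 99 C1q UMIs in the treated library and 174 in the control library, and 13 and 29 chemokine UMIs. They carried 100% of the Prg4 and Alox15 UMIs of all members, 89.6% of those of Saa3 in the treated library and 99.4% in the control library, and 92.5% and 97.6% of those of Serpinb2. They also carried 42.4% of the Fn1 UMIs of the treated members and 75.3% of those in the control library. Ms4a7 had 0 UMIs in them in the treated library and 1 in the control library, and Ccl12 had 0 in both. Over all kept barcodes, 26 treated and 28 control cells reached the same count of Prg4 and Alox15.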

How the data were processed

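The 2 droplet libraries of aortic CD45+ cells were used, 1 per group. Per the labels' protocols they were made with the 10x 3′ kit v2. The submitters' processing notes name mm10, Seurat 4.4.0 and Cell Ranger 3.1.0, but version 7.2.0 of Cell Ranger stands in the matrices, per the file headers. The deposited values are raw UMI counts per gene and barcode, with no normalization by the authors recorded. The handling of intronic reads is not stated. Of 32285 genes in the files, 32158 were in GENCODE vM21.

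Cells were chosen by the rule given in the report, without removing doublet calls. UMIs were summed over cells within each library and given as CPM, with exact Poisson, conditional binomial and Clopper-Pearson 95% intervals (Python 3.11.15, numpy 2.4.6, scipy 1.17.1, pandas 2.3.3). Doublets were called with Scrublet in scanpy 1.11.5. Genes needed 50 UMIs and 20 CPM in a library, and list members 20 UMIs over both. Shares of cells with a UMI were also taken after thinning to 3000 UMIs. The intervals were checked on counts simulated with Poisson error alone. That check leaves out the clustering of UMIs in single cells, so it does not show that the intervals cover it.

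Genes were named as the 12 highest and 12 lowest ratios of treated over control, the 15 highest and 10 lowest of members over chemokine-low cells by the smaller ratio, and up to 4 per list. Rule genes, mitochondrial, ribosomal, haemoglobin, sex-linked, predicted and receptor genes of lymphocytes were left out of that ranking. Chemokine-low, Lyve1-type and Gpnmb-type cells are defined in the report. The members and the 22 lists were chosen with earlier results of these data known. Some genes that these choices named are not reported here.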

Additional observations from a re-analysis of the deposited data

Results flagged for a closer look

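Retnla, which encodes a secreted protein of alternatively activated macrophages, had opposite directions in the libraries. Its log2 ratio of Ccl3/Ccl4 macrophages over chemokine-low macrophages was 1.97 in the treated library and -2.28 in the control library. In the treated members 64.7% of its UMIs came from 1 cell, and in the control members 49.1% did. Satb1, a chromatin organizer of lymphocytes, had ratios of 2.17 in the treated library and -1.20 in the control library. These differences between the libraries were not tested.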

How the results depend on the processing

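Results were recomputed with 1 choice altered at a time. No paired analysis was possible because each group has 1 library. With 1 library per group, leaving out a replicate was not possible either.

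The share of members depended on its definition in both libraries. It was 2.72% in the treated library with at least 1000 detected genes and 2.68% with at least 3 chemokine UMIs. It was 2.0% in the treated and 1.28% in the control library with at least 10 chemokine UMIs, and 3.77% and 2.48% after thinning to 3000 UMIs. Thinning gave 332 treated and 228 control members, although only 234 and 168 of the original members had 3000 UMIs. The thinned shares thus include cells that were not members before, since thinning also lowers the counts of the sets with an upper limit. Of macrophages it was 13.3% in the treated and 12.7% in the control library, a ratio of 1.05. With at least 15 C1q UMIs, an alternative chosen after seeing the data, it was 1.80% and 1.33%.

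Counts of genes past a fold moved with the abundance rule. With at least 20 UMIs and no CPM minimum, 760 genes were at least 1.5-fold higher and 440 lower in the treated library, and 137 were at least 2-fold higher and 43 lower in members than in chemokine-low cells. At 2-fold, 59 were higher and 38 lower in the treated library. At 1.5-fold, 249 were higher and 93 lower in members than in chemokine-low cells. The count lower in members was 8 with at least 3 chemokine UMIs and 8 with at least 15 C1q UMIs. Set against Lyve1-type cells it was 295 and against Gpnmb-type cells 90. Among cells nearly free of lymphocyte and neutrophil markers (1 UMI at most), chosen after seeing the data, 192 genes were at least 1.5-fold higher and 111 lower in the treated library; fewer cells leave fewer abundant genes. The planned form of this choice, which also counted immunoglobulin, left 16 treated and 0 control members and gave no value.

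Directions were counted as turned for 3 genes and 1 list, and crossings of 0 by values near it were not all counted. The treated over control log2 ratio of Camp was -0.10 without Scrublet calls. That of Saa3 was 1.76 without the cells that hold Prg4 or Alox15 and 6.46 with at most 1 UMI of other cells' markers. With that same choice Fabp4 in members over chemokine-low cells of the treated library was -1.42, and the resident list median was 0.17. Of 242 list medians recomputed, 211 stayed within the allowed range, 30 moved and 1 turned. Over 11 settings the recruited monocyte median ran from 0.62 to 1.51, the heat shock median from 0.53 to 0.81, the interferon gamma median from 0.33 to 0.62 and that of the other CC chemokines from -0.36 to -0.14. Further medians near 0 crossed it over these settings. They were those of the NF-kappaB (-0.07 to 0.04), Toll-like receptor (-0.08 to 0.14), class II (-0.12 to 0.07) and foam cell (-0.02 to 0.37) lists. The causes were not tested.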

Other observations

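The cells that hold Prg4 and Alox15 carried 95.7% of the Cd5l UMIs of the treated members and 94.6% of those of the control members. For Cxcl13 they carried 0 of 2 UMIs in the treated library and 83.9% of 230 in the control library, and for Slpi 48.7% and 82.1%. None of the chemokine-low cells of either library reached their count of Prg4 and Alox15.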
